A study of Mus musculus with 6 samples.

Results

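The genes described here carry out or regulate the making of cholesterol: the enzymes from acetyl-CoA to cholesterol, the SREBP transcription factors with the proteins that hold or process them, and 2 genes of cholesterol transfer and storage. Of 29 listed genes, 27 had a probe set annotated with that single symbol, out of 18194 genes on the arrays, and the probe set with the highest mean over the 6 arrays stands for each gene. Acat2 and Soat1 had no such probe set in the annotation used here and were not analysed. The arrays measured RNA of peritoneal macrophages drawn into the abdominal cavity with thioglycollate, an irritant. Cells came from wild-type mice or from LysM-Cre+;Akirin2fl/fl mice, called Akirin2 KO here, all of a mixed C57BL/6 x 129Sv strain. LysM-Cre is a recombinase made from the lysozyme gene, so the floxed Akirin2 gene is removed in macrophages and other myeloid cells, and cells in which Cre did not act keep it. Each genotype was unstimulated (0 h) or had 100 ng/ml of lipopolysaccharide (LPS), a bacterial cell wall component, for 2 or 4 h. There was 1 array for each of the 6 conditions, and the sources used here do not give the age, sex or number of mice behind an array.

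Cells make cholesterol from acetyl-CoA through mevalonate, isoprenoid diphosphates, squalene and lanosterol. The genes of this route are switched on by SREBP-2, and fatty acid synthesis genes more by SREBP-1. Both factors are held in the endoplasmic reticulum by the escort SCAP and the retention proteins INSIG while sterols are plentiful, and are cut free by a pair of Golgi proteases when sterols run low. In macrophages the pathway is also known to respond to inflammatory stimuli and to oxysterols such as the product of the LPS-induced enzyme CH25H.

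A group of sterol synthesis genes was lower in Akirin2 KO macrophages, and LPS raised many of them by 4 h. In a limma fit with genotype and LPS time as terms, 9 of the 27 genes fell in Akirin2 KO and 0 rose. Over all 13587 genes tested, 1.06% fell and 0.891% rose. An unadjusted p under 0.05 was found for 15 of the 27, beside 15.4% of all genes. The largest differences were those of Cyp51, at 41.1% of the wild-type level, Idi1 at 46.6%, Stard4 at 53.4% and Fdft1 at 54.4%. After 4 h of LPS 12 of the 27 rose and 1, Dhcr7, fell, where 7.76% of all genes rose and 7.61% fell. After 2 h 2 rose, Cyp51 and Idi1, and 0 fell, where 3.96% rose and 2.89% fell. With 2 residual degrees of freedom, these p-values set a difference against its variation over the 3 times or the 2 genotypes, not against the spread between animals. In such bulk samples, fewer cells of a type and less RNA per cell cannot be told apart. The summed levels of mesothelial and fibroblast markers and of resident macrophage markers also differed between genotypes on all arrays, though not every marker did. So did the 3′ minus 5′ difference of the Actb control, a measure of RNA quality, while that of Gapdh overlapped. The values are given at the end, and the part of the markers or of RNA quality in these differences was not tested.

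**Figure D1:**
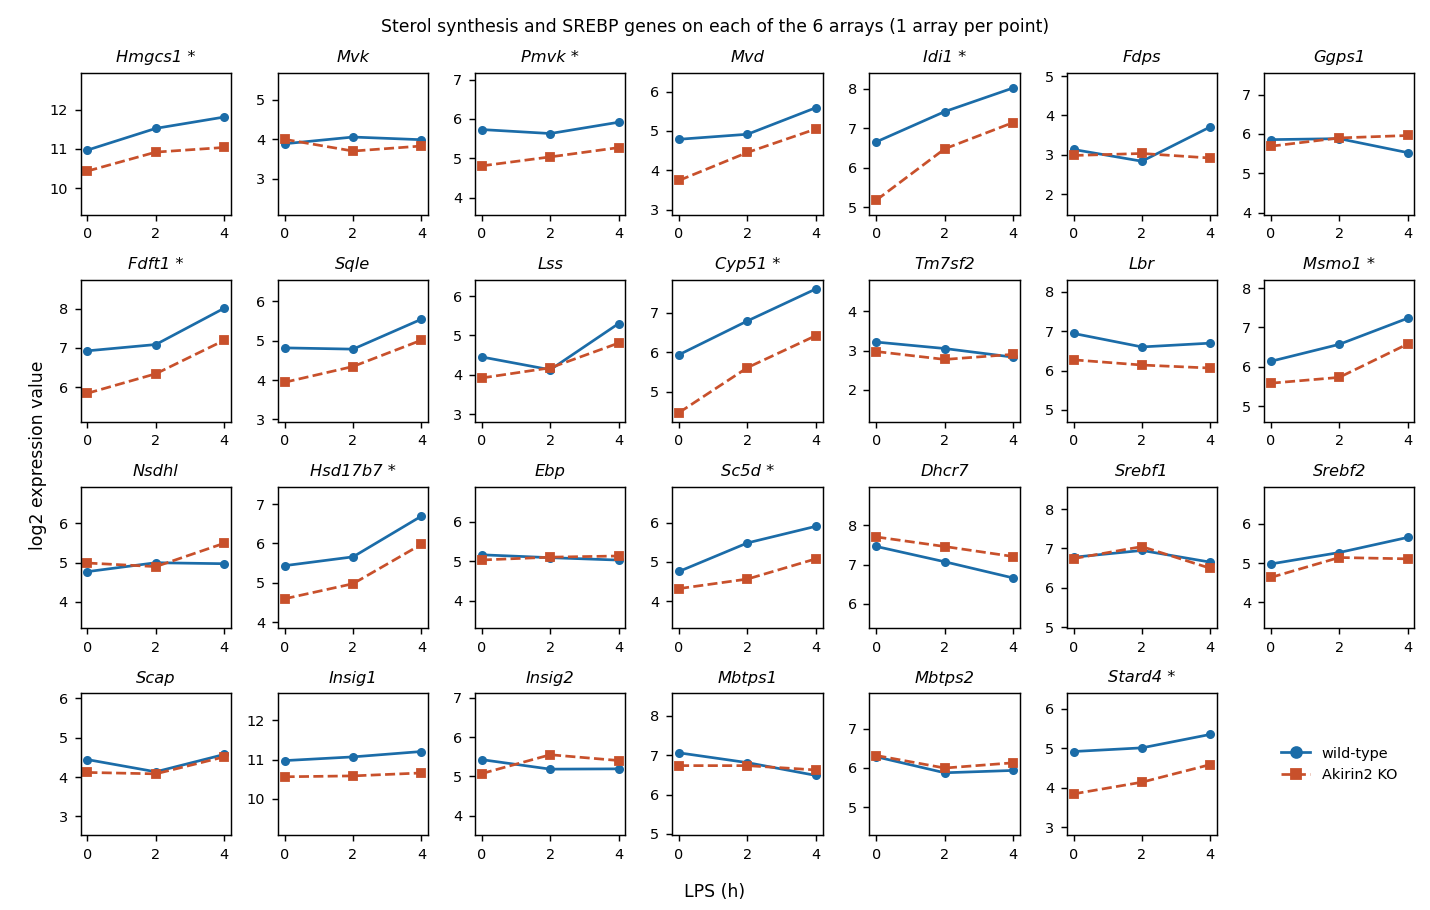
The log2 expression value (vertical axis, a span of equal size in every panel) of each gene against hours of LPS (horizontal axis), with 1 array per point, wild-type as solid lines and Akirin2 KO as dashed lines. A star marks the 9 genes with an adjusted p under 0.05 between genotypes; for Cyp51 and Idi1 both lines rise with LPS and the Akirin2 KO line lies below at all 3 times.

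The promoters of these genes are known to join a sterol regulatory element with binding sites of general partners of SREBP, above all NF-Y, which reads the letters CCAAT. RefSeq windows of 300 bases (250 before to 50 after the start of a transcript, build GRCm38.p6) were at hand for 23 of the 27 genes, in 31 windows. The windows of a whole chromosome had been left out beforehand, for these and for all other genes, so the shares below do not cover it. Among the windows kept, Fdps, Fdft1, Sqle and Stard4 had none, which does not show that they lack a RefSeq window. Windows of 4 genes are printed here, chosen with the values known: Cyp51 and Idi1 for the largest differences, Hmgcs1 for its sterol regulatory element, and Mbtps2 as a gene that passed no test. Capitals mark exact matches, on either strand, to CCAAT, to the GC box GGGCGG, to the E-box CACGTG, and to the core of the sterol regulatory element TCACNCCAC.
Cyp51, chr5:4104648-4104947, minus strand: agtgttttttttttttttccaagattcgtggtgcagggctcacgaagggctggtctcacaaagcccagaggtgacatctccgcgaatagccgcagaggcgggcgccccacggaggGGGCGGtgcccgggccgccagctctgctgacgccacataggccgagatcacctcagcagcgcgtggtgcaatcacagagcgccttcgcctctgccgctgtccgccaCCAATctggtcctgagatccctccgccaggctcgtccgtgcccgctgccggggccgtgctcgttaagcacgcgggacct
Idi1, chr13:8885356-8885655, plus strand: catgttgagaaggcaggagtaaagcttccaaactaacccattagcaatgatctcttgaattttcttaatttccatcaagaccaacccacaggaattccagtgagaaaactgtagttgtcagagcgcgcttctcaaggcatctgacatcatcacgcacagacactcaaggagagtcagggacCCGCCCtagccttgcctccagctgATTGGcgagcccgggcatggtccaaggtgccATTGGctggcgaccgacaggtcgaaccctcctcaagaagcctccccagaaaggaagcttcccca
Hmgcs1, chr13:119690101-119690400, plus strand: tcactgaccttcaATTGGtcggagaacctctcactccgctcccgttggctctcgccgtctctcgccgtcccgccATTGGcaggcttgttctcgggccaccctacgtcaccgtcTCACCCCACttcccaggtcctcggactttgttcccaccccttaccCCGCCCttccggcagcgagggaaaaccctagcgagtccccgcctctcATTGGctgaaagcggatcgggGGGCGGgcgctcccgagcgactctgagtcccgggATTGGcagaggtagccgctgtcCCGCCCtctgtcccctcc
Mbtps2, chrX:157598666-157598965, minus strand: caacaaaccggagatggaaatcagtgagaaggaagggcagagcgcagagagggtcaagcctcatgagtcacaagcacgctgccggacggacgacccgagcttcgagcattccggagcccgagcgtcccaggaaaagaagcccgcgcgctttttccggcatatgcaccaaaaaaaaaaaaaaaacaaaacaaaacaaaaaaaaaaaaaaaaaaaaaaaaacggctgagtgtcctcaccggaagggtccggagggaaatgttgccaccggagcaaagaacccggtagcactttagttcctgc

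Counted from 1 at the 5′ end of each window, CCAAT or its reverse ATTGG began at position 222 in Cyp51, at 206 and 237 in Idi1, and at 14, 75, 206 and 261 in Hmgcs1. Hmgcs1 alone of the 23 genes held an exact match to the sterol regulatory element core, at position 114, beside 1.38% of tested genes with a window. By window it was 3.23% of the 31, beside 1.24% of all 32851 windows. Variant forms of the element were not searched, so a window without a match may still hold one. CCAAT was found for 20 of the 23 genes, which is 87.0%, beside 42.5% of the 10888 tested genes that had a window. By window it was 67.7% of the 31, beside 37.4% of all windows. All 7 genes with a window that fell in Akirin2 KO held it, as did 13 of the 16 that did not pass. The GC box was found for 20 genes as well, beside 64.0% of tested genes, and in 77.4% of the 31 windows, beside 35.7% of all windows. The E-box was found for 5 genes, Dhcr7, Hsd17b7, Insig1, Sc5d and Scap, which is 21.7%, beside 11.2% of tested genes. By window it was 19.4% of the 31, beside 7.15% of all windows. The Mbtps2 window held none of the 4 motifs. A match describes these letters only, and binding was not measured.

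Among the 7 measured genes of the mevalonate and isoprenoid steps, 3 fell in Akirin2 KO: Hmgcs1, Pmvk and Idi1. Hmgcs1, whose product condenses acetyl-CoA units into HMG-CoA and whose window above holds the sterol regulatory element, had log2 values of 10.97, 11.52 and 11.81 at 0, 2 and 4 h in wild-type. In Akirin2 KO they were 10.44, 10.92 and 11.04, so that the 4 h value of the KO was close to the 0 h value of wild-type. It fell by 0.64 in KO (SE 0.12, adjusted p = 0.0415) and rose by 0.72 at 4 h (SE 0.15, adjusted p = 0.0134). Its 3 other probe sets above the array median were lower in KO at all 3 times too. At 2 h its difference was 0.52 (adjusted p = 0.0869), which passed with its probe sets averaged (0.70, adjusted p = 0.0141).

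Idi1 encodes the isomerase that interconverts the basic isoprenoid building blocks. Its log2 values were 6.66, 7.43 and 8.03 in wild-type against 5.17, 6.48 and 7.15 in KO. The KO array at 0 h was the lowest of the 6, and its value after 2 h of LPS was still below that of unstimulated wild-type cells. Idi1 fell by 1.10 in KO (SE 0.15, adjusted p = 0.0115) and rose by 1.04 at 2 h (SE 0.18, adjusted p = 0.0126) and by 1.67 at 4 h (SE 0.18, adjusted p = 0.000556). The rise at 4 h was 1.37 in wild-type and 1.97 in KO. A second Idi1 probe set read 5.23, 5.78 and 6.80 in wild-type, and in KO 4.30, 5.24 and 5.64, lower at each time as well.

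Pmvk, a kinase gene of the route, read 5.73, 5.63 and 5.91 in wild-type cells and 4.81, 5.03 and 5.27 in KO cells. All 3 KO arrays lay below all 3 wild-type arrays, and the fitted difference was -0.72 (SE 0.13, adjusted p = 0.0333). LPS differences of Pmvk did not pass (0.33 at 4 h, adjusted p = 0.221). Mvd, the decarboxylase gene, read 4.79, 4.92 and 5.59 on the wild-type arrays and 3.74, 4.45 and 5.05 on the KO arrays. Its genotype difference of -0.68 missed the threshold (adjusted p = 0.0647), while it rose by 1.05 at 4 h (SE 0.18, adjusted p = 0.00532). Its probe set may cross-hybridise, and the other Mvd probe set, near the array median, had a 4 h difference of 0.025 (adjusted p = 0.94).

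The remaining mevalonate and isoprenoid genes passed no test. Mvk, the mevalonate kinase gene, stayed between 3.70 and 4.06 on all arrays, and Ggps1, the geranylgeranyl diphosphate synthase gene, between 5.52 and 5.96. Their genotype differences were -0.13 and 0.095. Fdps, which encodes farnesyl diphosphate synthase, read between 2.83 and 3.71 and reached the array median on 1 array only, wild-type at 4 h. Its level was thus near background on these arrays.

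Of the 12 genes from squalene to cholesterol, 5 fell in Akirin2 KO: Fdft1, Cyp51, Msmo1, Hsd17b7 and Sc5d. At 4 h of LPS 7 of the 12 rose, these 5 with Sqle and Lss. Cyp51, the lanosterol demethylase gene, read 5.94, 6.80 and 7.61 in wild-type against 4.47, 5.61 and 6.42 in KO. The KO value after 2 h of LPS was below that of unstimulated wild-type cells, and the value after 4 h was below that of wild-type at 2 h. Cyp51 fell by 1.28 in KO (SE 0.13, adjusted p = 0.00385), with differences of -1.47, -1.19 and -1.19 at 0, 2 and 4 h. It rose at 2 h, by 0.86 in wild-type and 1.14 in KO (adjusted p = 0.00659), and by 1.81 at 4 h (SE 0.16, adjusted p = 0.000142), a 3.51-fold rise. A second Cyp51 probe set read 4.15, 5.50 and 6.03 in wild-type, and in KO 3.90, 4.56 and 4.89. The dimmest one, near the array median, differed by only -0.23, -0.078 and -0.065 between genotypes at 0, 2 and 4 h.

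Fdft1 encodes squalene synthase, the enzyme that commits isoprenoids to sterols. It read 6.93, 7.09 and 8.01 in wild-type cells and 5.85, 6.34 and 7.19 in KO cells. It fell by 0.88 in KO (SE 0.13, adjusted p = 0.0157) and rose by 1.21 at 4 h (SE 0.16, adjusted p = 0.00121). Its brightest probe set may cross-hybridise; with such probe sets left out the genotype difference was -0.54 (adjusted p = 0.196) and the 4 h rise still passed. With its probe sets averaged the genotype difference was -0.45 (adjusted p = 0.105).

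Msmo1, the methylsterol oxidase gene, read 6.14, 6.57 and 7.23 on the wild-type arrays and 5.58, 5.73 and 6.58 on the KO arrays. It fell by 0.68 in KO (SE 0.12, adjusted p = 0.0359) and rose by 1.04 at 4 h (SE 0.15, adjusted p = 0.00231). With the other Msmo1 probe set these were -0.44 (adjusted p = 0.203) and 0.34 (adjusted p = 0.265). Sc5d, a sterol desaturase gene, read 4.76, 5.48 and 5.90 in wild-type against 4.32, 4.56 and 5.08 in KO. It fell by 0.73 in KO (SE 0.14, adjusted p = 0.0389) and rose by 0.95 at 4 h (SE 0.17, adjusted p = 0.00627). With its probe sets averaged both calls ended, at -0.47 (adjusted p = 0.0672) and 0.40 (adjusted p = 0.0616).

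Hsd17b7, a sterol ketoreductase gene, depended on the probe set. The brightest one read 5.44, 5.66 and 6.69 in wild-type cells and 4.59, 4.98 and 5.98 in KO cells, and gave a fall of 0.75 in KO (SE 0.12, adjusted p = 0.022) and a 4 h rise of 1.32 (adjusted p = 0.000586). That probe set may cross-hybridise. The next brightest read 3.42, 3.40 and 3.57 on the wild-type arrays and 3.96, 3.86 and 3.89 on the KO arrays, a difference of 0.44 in the other direction (adjusted p = 0.137), and its 4 h difference was 0.046 (adjusted p = 0.887). Which of the 2 reads Hsd17b7 was not tested.

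Sqle and Lss, the genes of the enzymes that oxidise squalene and close it to lanosterol, rose at 4 h by 0.90 (SE 0.16, adjusted p = 0.00722) and 0.87 (SE 0.18, adjusted p = 0.0141). Sqle read 4.82, 4.79 and 5.55 in wild-type against 3.94, 4.34 and 5.01 in KO, so the rise came between 2 and 4 h in wild-type. Its genotype difference of -0.62 missed the threshold (adjusted p = 0.0655). Lss read 4.45, 4.13 and 5.30 in wild-type cells and 3.92, 4.18 and 4.81 in KO cells, and the genotypes overlapped (-0.33, adjusted p = 0.346). With the Lss probe sets averaged the 4 h call ended (0.45, adjusted p = 0.0706). Another Lss probe set lay the other way between genotypes, at 3.73, 3.32 and 3.69 in wild-type, and in KO at 4.20, 3.83 and 3.97.

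Dhcr7, whose product carries out a last step to cholesterol, went the other way. It read 7.46, 7.07 and 6.66 on the wild-type arrays and 7.70, 7.46 and 7.21 on the KO arrays, lowest at 4 h in both genotypes. It fell by 0.65 at 4 h (SE 0.15, adjusted p = 0.0233), and its genotype difference was 0.39 (adjusted p = 0.184). Lbr, a sterol reductase that also anchors chromatin at the inner nuclear membrane, read 6.94, 6.60 and 6.70 in wild-type against 6.27, 6.14 and 6.06 in KO. Its groups did not overlap, but the difference of -0.59 missed the threshold (adjusted p = 0.0556), which it passed under eBayes with trend and robust (adjusted p = 0.00484). Tm7sf2, the other reductase of that step, read 2.77 to 3.22 and reached the array median on 1 array only. Nsdhl and Ebp, a dehydrogenase and an isomerase gene, passed no test: Nsdhl ran from 4.77 to 5.49 (genotype difference 0.21, adjusted p = 0.544), and Ebp stayed between 5.03 and 5.16 on all 6 arrays.

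The 7 SREBP factors and regulators had 0 calls between genotypes, with 2 unadjusted p-values under 0.05, beside 15.4% of all genes, and a median difference of -0.087. Insig1, which is both a retention protein and a known SREBP target, read 10.97, 11.07 and 11.20 in wild-type cells and 10.56, 10.58 and 10.66 in KO cells. All KO arrays lay below all wild-type arrays, and the difference of -0.48 missed the threshold (SE 0.12, adjusted p = 0.0953). It passed under eBayes with trend and robust (adjusted p = 9e-06). Insig1 hardly moved with LPS (0.16 at 4 h, adjusted p = 0.525). Srebf2, the gene of SREBP-2, read 4.98, 5.27 and 5.65 on the wild-type arrays and 4.63, 5.14 and 5.11 on the KO arrays. It rose by 0.57 at 4 h (SE 0.16, adjusted p = 0.0464), a call that ended under 9 of 14 alternatives, with an adjusted p of up to 0.308, among them leaving out any 1 array but the KO array at 4 h. Srebf1, Scap and the protease genes Mbtps1 and Mbtps2 passed no test, with genotype differences from -0.15 for Scap to 0.12 for Mbtps2. Srebf1, the gene of SREBP-1, stayed between 6.49 and 7.05, Scap between 4.08 and 4.58, Mbtps1 between 6.49 and 7.06 and Mbtps2 between 5.88 and 6.32.

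Insig2, the other retention protein gene, read 5.43, 5.18 and 5.19 in wild-type against 5.07, 5.55 and 5.40 in KO. It was lower after LPS on both wild-type arrays and higher on both KO arrays. The interaction of genotype with LPS was 0.64 (SE 0.25, adjusted p = 0.311) and did not pass.

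Stard4, the gene of a carrier that moves cholesterol between membranes, read 4.92, 5.01 and 5.35 in wild-type cells and 3.84, 4.14 and 4.59 in KO cells. All KO arrays lay below all wild-type arrays. It fell by 0.91 in KO (SE 0.13, adjusted p = 0.0129) and rose by 0.59 at 4 h (SE 0.15, adjusted p = 0.0349). Its other probe sets, dimmer but above the array median, were not lower in KO at every time. At 0, 2 and 4 h they differed by -0.20, 0.071 and -0.56, and by 0.046, -0.38 and -0.48. The genotype difference was -0.47 with its 3 probe sets averaged (adjusted p = 0.0768). The 4 h call ended under 6 of 14 alternatives, with an adjusted p of up to 0.182, among them leaving out any 1 array but the wild-type array at 0 h.

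**Figure D2:**
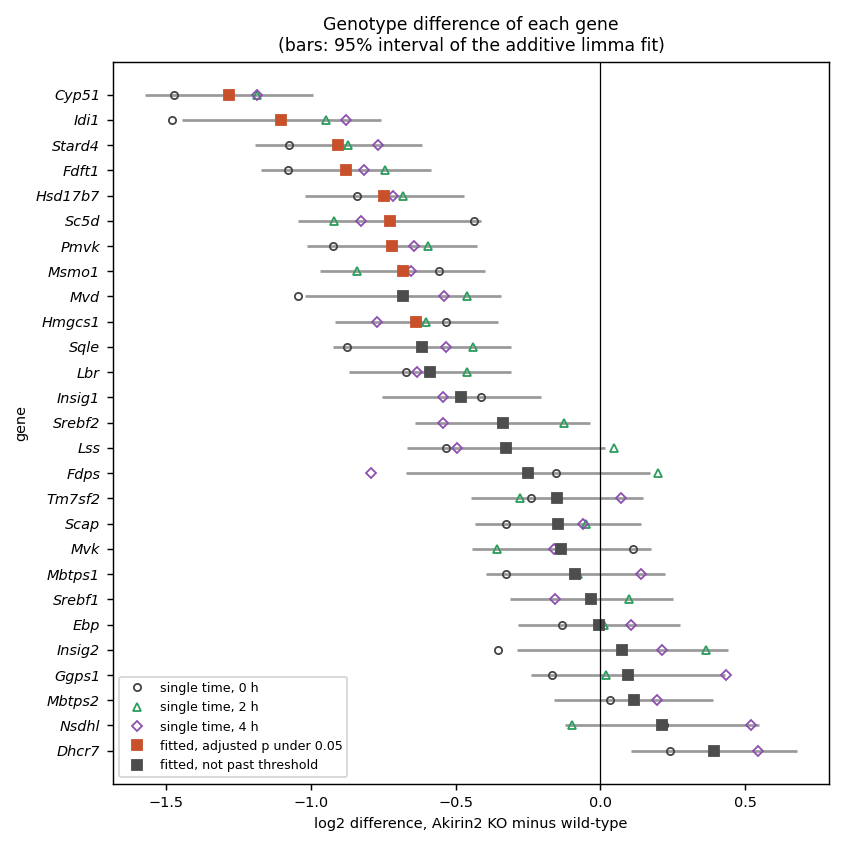
The log2 difference of Akirin2 KO minus wild-type (horizontal axis) for each gene (vertical axis, ordered by size): open symbols are single times, filled squares the fitted difference over 3 times, bars its 95% interval. Cyp51 and Idi1 lie farthest to the left, at -1.28 and -1.10, and Dhcr7 farthest to the right, at 0.39, not past the threshold.

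By size alone, 5 of the 27 genes were at least 2-fold lower in KO at 0 h (Cyp51, Idi1, Fdft1, Stard4 and Mvd), where 1.15% of all genes were. At 2 h and at 4 h it was 1 gene, Cyp51, where 0.464% and 0.618% of all genes were. At 0, 2 and 4 h 0 members were 2-fold higher in KO, beside 0.78%, 0.486% and 0.832% of all genes. The median difference of the 27 genes was -0.41, -0.36 and -0.54 at 0, 2 and 4 h, beside -0.074, 0.0043 and 0.030 over all genes tested. With arrays centred on their medians all differences at 0 h shifted by 0.16 and those at 4 h by -0.11, and the medians of the 27 were -0.25, -0.36 and -0.65. KO was below wild-type at all 3 times for 15 genes and above for 2, beside 20.4% and 17.2% of all genes. For 4 genes, Pmvk, Lbr, Insig1 and Stard4, all KO arrays lay below all wild-type arrays, beside 6.2% of all genes, and for 0 all lay above, beside 6.09%. Of 43 probe sets of the members that reached the array median on all 6 arrays, 24 were lower in KO at all 3 times, beside 24% of such probe sets over all genes, and 5 were higher, beside 16.9%.

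The calls between genotypes rested on few arrays. Cyp51, Idi1, Fdft1 and Stard4 also passed without any 1 of the 6 arrays. Leaving out 1 array of a time gave the same genotype difference as leaving out both. Without either of the 2 h arrays, Hmgcs1 (adjusted p = 0.165), Pmvk (0.0754), Msmo1 (0.21), Hsd17b7 (0.0748) and Sc5d (0.197) did not pass, which left 4 of the 9. Without either of the 4 h arrays Hmgcs1 (0.112), Msmo1 (0.0544) and Sc5d (0.0766) did not pass. With arrays centred 5 genes fell, and Hmgcs1, Pmvk, Msmo1 and Sc5d had adjusted p-values of 0.102, 0.0501, 0.0879 and 0.115.

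LPS responses in the genotypes were set side by side. At 4 h, 6 genes were at least 2-fold higher than at 0 h in wild-type (Cyp51 1.67, Idi1 1.37, Hsd17b7 1.26, Sc5d 1.15, Msmo1 1.09 and Fdft1 1.08), where 3.72% of all genes were. In KO 6 were (Idi1 1.97, Cyp51 1.96, Hsd17b7 1.38, Fdft1 1.35, Mvd 1.31 and Sqle 1.07), where 4.07% were. At 2 h the count was 0 in wild-type, where 2.26% of all genes were, and 2 in KO, Idi1 (1.30) and Cyp51 (1.14), where 2.44% were. The 2 h and 4 h differences of a genotype share its 0 h array. Over both genotypes the 2 h calls of Cyp51 and Idi1 ended without the KO array at 2 h (adjusted p = 0.0685 and 0.0901). Without the wild-type array at 4 h the 4 h calls of Hmgcs1 (adjusted p = 0.0999), Lss (0.0746), Dhcr7 (0.167), Srebf2 (0.308) and Stard4 (0.0664) ended, which left 8 that rose. The fall of Dhcr7 also missed the threshold without the wild-type array at 0 h (adjusted p = 0.0809).

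**Figure D3:**
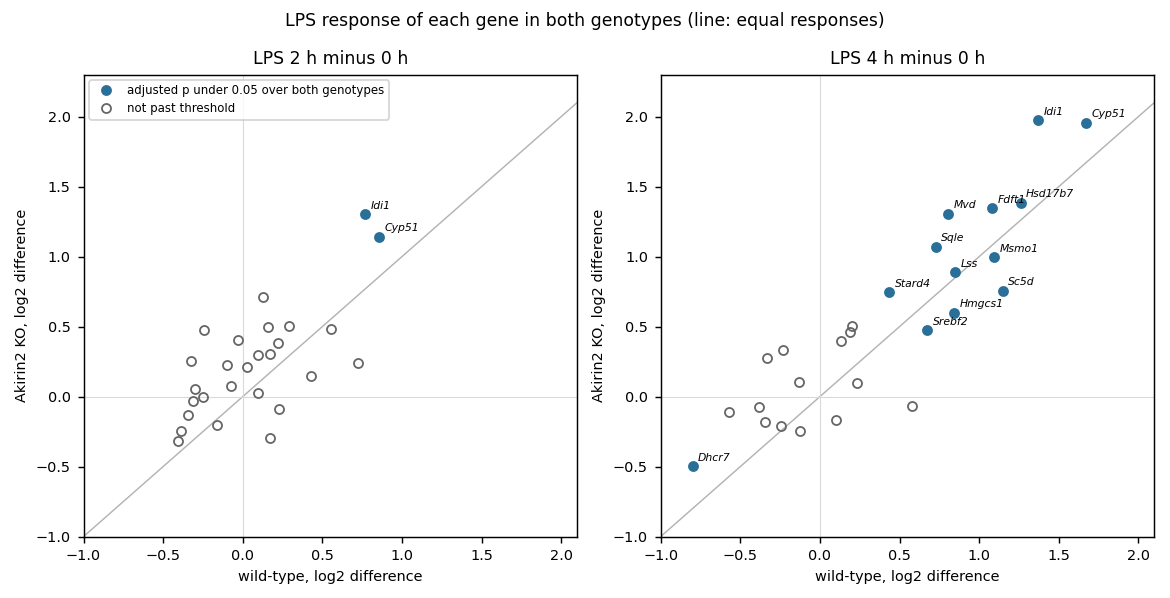
The log2 difference from 0 h in Akirin2 KO (vertical axis) against that in wild-type (horizontal axis) at 2 h (left) and 4 h (right), with 1 point per gene and filled points for an adjusted p under 0.05 over both genotypes. At 4 h the 12 genes that rose lie above 0 in both genotypes, Cyp51 at 1.67 and 1.96, and Dhcr7 lies below 0 in both.

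The response itself did not pass a test of difference between genotypes for any of the 27 genes. The limma interaction had 1 residual degree of freedom, and it passed for 0.0221% of all genes with a smaller and 0.00736% with a larger response in KO. Among the members 3 had an unadjusted p under 0.05, where 12.8% of all genes had one, so this count is no higher than the background. They were Insig2 (0.64), Idi1 (0.57, adjusted p = 0.365) and Mvd (0.54, adjusted p = 0.388). The interaction was above 0 for 20 of the 27 genes and for 62.8% of all genes. The count stayed 0 under each alternative that could be fitted, eBayes with trend and robust included. For Cyp51 the interaction was 0.29 with a 95% interval from -0.25 to 0.82, so a larger or a smaller response in KO lies within it.

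Gene lists around the pathway were set beside these counts. Of 11 tested fatty acid synthesis genes 0 passed between genotypes in limma, with 6 unadjusted p-values under 0.05, beside 15.4% of all genes. Their median was -0.30. Of the 11, 8 were lower in KO at all 3 times and 2 higher, beside 20.4% and 17.2% of all genes. At 0 h 3 were at least 2-fold lower in KO and 0 higher, beside 1.15% and 0.78%. For 2 all KO arrays lay below all wild-type arrays and for 0 above, beside 6.2% and 6.09%. At 4 h of LPS Me1, which supplies NADPH, rose by 1.05 (adjusted p = 0.00382), and the elongase gene Elovl5 fell by 1.40 (adjusted p = 0.000457). Of 13 LXR and cholesterol efflux genes, Apoe, a lipid carrier gene, fell by 1.13 in KO (adjusted p = 0.0052). Nr1h3, the gene of the sterol sensor LXR alpha, rose by 0.74 in KO (adjusted p = 0.04). Without either 2 h array Apoe still passed, and Nr1h3 did not (0.58, adjusted p = 0.236).

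The efflux list moved with LPS in both directions. Ch25h, whose product makes an oxysterol that blocks SREBP release, rose by 1.58 at 2 h (adjusted p = 0.00343) and 2.64 at 4 h (adjusted p = 0.000115). It read 3.16, 5.17 and 6.18 on the wild-type arrays and 3.37, 4.52 and 5.63 on the KO arrays, and the genotypes overlapped. The transporter gene Abcg1 fell by 2.49 at 4 h (adjusted p = 6.68e-05), the cholesterol ester hydrolase gene Nceh1 by 2.05 (adjusted p = 9.58e-05), Cyp27a1 by 1.67 and Rxra by 0.99. Nr1h3 rose by 0.65 (adjusted p = 0.0386), a call lost without either 4 h array or the KO array at 0 h (adjusted p of up to 0.164). At 2 h Abcg1 fell by 1.14 (adjusted p = 0.00744) and Rxra by 0.74 (adjusted p = 0.0235). The calls of Rxra ended with its probe sets averaged (adjusted p = 0.593 at 2 h and 0.338 at 4 h), and that at 2 h without the KO or wild-type array at 2 h or the wild-type array at 0 h (adjusted p = 0.223, 0.18 and 0.0581).

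Of 9 genes of sterol-regulated degradation, Rnf145, a ubiquitin ligase gene, fell by 0.65 in KO (SE 0.13, adjusted p = 0.042). It read 5.22, 5.70 and 6.09 in wild-type against 4.41, 5.08 and 5.58 in KO, and rose by 1.02 at 4 h (adjusted p = 0.00275). Its genotype call was lost without either 2 h array (adjusted p = 0.158). Vcp, an ATPase gene of protein extraction, rose by 0.89 at 4 h (adjusted p = 0.00735), a call lost with its probe sets averaged (0.37, adjusted p = 0.0979). Of 12 uptake and transport genes 0 passed between genotypes in limma, with 3 unadjusted p-values under 0.05, beside 15.4% of all genes; at 2 h Gramd1a (1.03) and Msr1 (0.72) rose. At 4 h Gramd1a (0.83), Msr1 (0.82) and Stard5 (0.69) rose, and Lrp1 fell by 0.68. The 2 h calls of Gramd1a (adjusted p = 0.121) and Msr1 (0.215) were lost without the wild-type array at 2 h, that of Msr1 also without the KO array at 2 h (0.211) and with its probe sets averaged (0.42, adjusted p = 0.171). The 4 h call of Lrp1 was lost without the wild-type array at 0 h or 4 h (adjusted p = 0.087 and 0.13), and that of Stard5 without either 4 h array or the KO array at 0 h (0.0626 to 0.174) and with its probe sets averaged (0.33, adjusted p = 0.131). Of 12 genes that use isoprenoids 0 passed in limma between genotypes or at 4 h, with 2 and 1 unadjusted p-values under 0.05, beside 15.4% and 28.2% of all genes. The median over the 3 times was -0.30 for fatty acid synthesis, near the -0.34 of the 27 genes, and -0.011 over all genes. List medians were -0.11 for efflux, -0.16 for degradation, 0.046 for uptake and -0.033 for isoprenoid use.

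**Figure D4:**
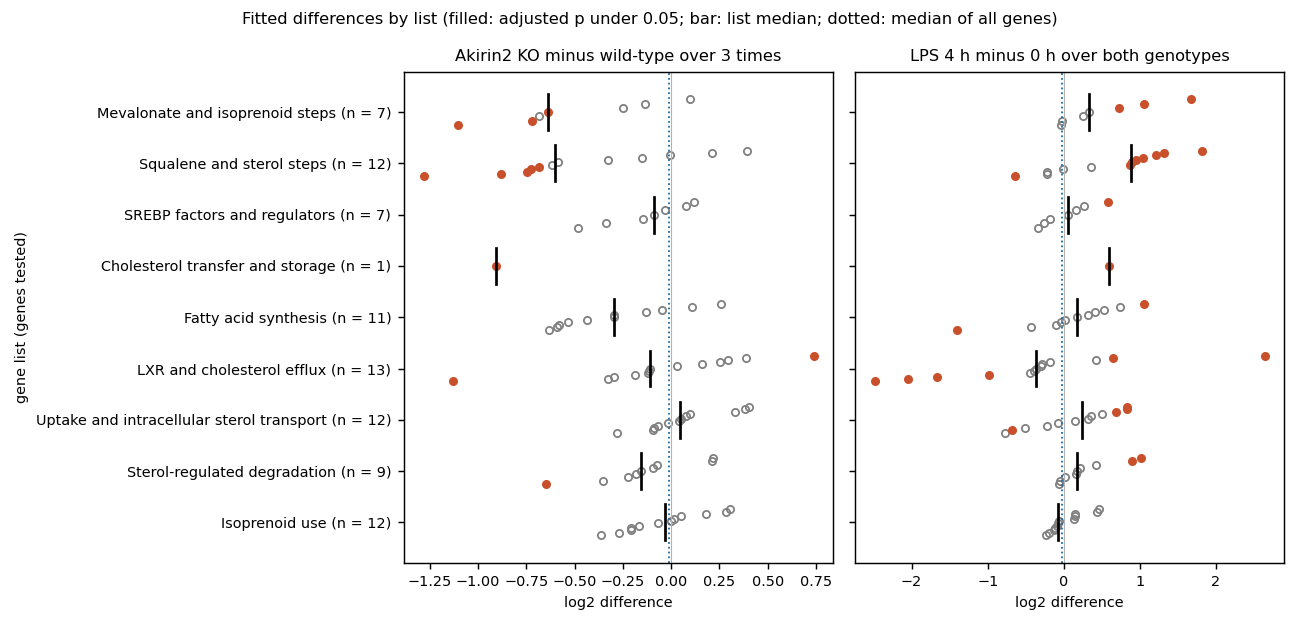
Fitted log2 differences (horizontal axis) of each tested gene by list (vertical axis), for Akirin2 KO minus wild-type (left) and LPS 4 h minus 0 h (right), with filled points for an adjusted p under 0.05, black bars for list medians and a dotted line for the median of all genes. The squalene and sterol steps have a median of -0.60 on the left and 0.88 on the right, and the LXR and cholesterol efflux list -0.11 and -0.37.

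Checks of the arrays stand beside these values. Akirin2 read 7.33 to 7.47 in wild-type and 4.91 to 5.54 in KO, at 21.7% of the wild-type level. The macrophage genes Csf1r (12.5 to 12.7) and Cd68 (10.6 to 10.9) read high on all arrays, while Itgam read near the array median. Of 12 macrophage markers 3 fell in KO (Fcgr1, C1qa and C1qc) and 0 rose, beside 1.06% and 0.891% of all genes. KO was below wild-type at all 3 times for 8 of the 12 and above for 0, beside 20.4% and 17.2%. For Adgre1, Fcgr1 and Lyz2 all KO arrays lay below all wild-type arrays, beside 6.2% of all genes. C1qc did not pass without either 2 h array (adjusted p = 0.12), nor Fcgr1 with its probe sets averaged (-0.54 in place of -0.89, adjusted p = 0.0546). The summed level of the 12 macrophage markers was 14.2 to 14.3 in wild-type and 14.1 to 14.2 in KO. The summed level of 10 mesothelial and fibroblast markers was 9.64 to 9.84 (log2) in wild-type and 8.93 to 9.23 in KO, and of 9 tested Col1a2 fell. That call was lost under 10 of 17 alternatives (adjusted p of up to 0.154), a tally that counts the same leave-out fit more than once. Lum stayed below the array median and Msln near it. That of 7 resident peritoneal macrophage markers was 10.01 to 10.37 and 9.12 to 9.74, and of 6 tested Cxcl13 fell. Gata6 read near the array median. Such sums weigh the brightest genes most. All KO arrays lay below all wild-type arrays for 5 of the 9 tested mesothelial and fibroblast markers. The same held for 2 of the 6 tested resident markers, beside 6.2% of all genes. Upk3b (0.14) and Alox15 (0.34) were higher in KO, neither past the threshold. The sums of neutrophil, B cell and T or NK cell markers overlapped between genotypes, and those of mast cell markers were 5.59 to 5.64 in wild-type and 5.66 to 5.80 in KO; each of these lists had 0 calls. The 3′ minus 5′ difference (log2) of the Actb control probe sets, a measure of RNA quality, was 4.09 to 4.22 in wild-type and 4.36 to 4.64 in KO. That of Gapdh was 4.33 to 4.42 and 4.34 to 4.52. The 3′ end thus read far above the 5′ end on all arrays. Its part in differences between probe sets of a gene was not tested.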

How the data were processed

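Gene expression was measured on 6 arrays, 1 for each of 6 conditions. Per the submitters' processing notes the authors used RMA, and the deposited table holds its log2 values, 1 per probe set. The version of RMA is not given in the sources used here. This method subtracts background, sets all arrays to one distribution and sums up the probes of a set, which can shrink differences of dim genes. The values ran from 2.26 to 14.2 over 45101 probe sets with array medians of 3.18 to 3.23; precision is limited by the number of arrays. The platform annotation gave 34958 probe sets a single symbol, 932 several and 9211 none.

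A gene was kept if it reached the median of all probe sets on at least 1 array, which left 13587 genes. limma 3.58.1 in R 4.3.3 fitted genotype and LPS time (prior worth 6.35 degrees of freedom), and genotype by stimulation in a second fit (prior 11.5), with eBayes and Benjamini-Hochberg adjustment over all genes at 0.05. Single arrays were compared by size (2-fold). The fits were tested on simulated data. The members and lists were chosen with earlier results of these data known. All measured members are named, and of other lists those that passed, up to 4 by size. Alternatives were other floors, probe set rules, scalings, variance priors, thresholds and left-out arrays. A probe set rule left out sets with names ending in _x_at, _s_at or _a_at where the gene had others, called suffixed here. The ending alone does not show that a set cross-hybridises. The spread between mice was not measured. The files name no genome build, so gene coordinates are not given, and promoter windows carry the build of their RefSeq table.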

Additional observations from a re-analysis of the deposited data

Results flagged for a closer look

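Among the 27 genes, 3 had LPS responses of opposite sign on both arrays of each genotype, and none of these differences passed the limma interaction test. The share of all genes with such signs was not counted, so the count cannot be read as particular to these genes. Insig2 was lower than at 0 h in wild-type (-0.24 at 2 h and -0.23 at 4 h) and higher in Akirin2 KO (0.48 and 0.33), with an interaction of 0.64 (adjusted p = 0.311). Mvk was higher in wild-type (0.17 and 0.10) and lower in KO (-0.30 and -0.17), with an interaction of -0.37 (adjusted p = 0.578). Ebp differed by -0.073 and -0.13 in wild-type and by 0.072 and 0.10 in KO, with an interaction of 0.19 (adjusted p = 0.803).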

How the results depend on the processing

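The calls of Cyp51 and Idi1 between genotypes held under all 17 alternatives run, with adjusted p-values of up to 0.0172 and 0.0261. Their sizes moved, from -1.33 to -0.73 for Cyp51 and from -1.21 to -0.88 for Idi1. For the genotype difference, leaving out either array of a time gives the same fit as leaving out both, so these 17 are not all separate checks. Likewise the 4 h difference is the same without either 2 h array. The count of 9 genes lower in Akirin2 KO was 5 with arrays centred, 4 without the 2 h arrays, and 4 to 9 with 1 array left out. It was 6 with probe sets averaged, Lbr among them, and 6 without the suffixed probe sets. With quantile normalization again it was 6, without Hmgcs1, Msmo1 and Sc5d. The limma option eBayes with trend and robust added 4 lower genes, Mvd, Sqle, Lbr and Insig1, and 1 higher gene, Dhcr7. Of 13 genes called at 4 h either way, 10 were called with probe sets averaged, 9 without the suffixed ones, and 8 to 12 with 1 array left out. The 4 h count of 1 lower gene was 0 to 1 with 1 array left out, and the 2 h count of 2 higher genes 0 to 3. Without the suffixed probe sets Hsd17b7 turned from -0.75 to 0.44, and the 4 h rise of Stard5, 0.69, turned to -0.012, since other probe sets stand for them. Of 28 called differences of Akirin2, list and marker genes, 15 held under all alternatives. The 2-fold counts moved too. KO below wild-type, 5, 1 and 1 genes at 0, 2 and 4 h, became 1 at 0 h and 0 at 2 h with probe sets averaged. This count became 2 at 0 h and 2 at 4 h without the suffixed probe sets, and 2 at 0 h with arrays centred. At 1.5-fold it was 9, 9 and 11, and at 3-fold 0 at each time. The LPS counts in wild-type, 0 and 6 at 2 and 4 h, became 2 at 4 h with probe sets averaged, 1 at 2 h with arrays centred, 3 and 11 at 1.5-fold and 1 at 4 h at 3-fold. Those in KO, 2 and 6, became 1 and 3 with probe sets averaged, and 1 at 2 h without the suffixed probe sets. At 1.5-fold the KO count at 4 h was 11, and at 3-fold the counts were 0 and 2. The cause of the other changes was not tested. Values that passed in neither setting changed sign in 80 of 1419 cases, by sizes of up to 0.377. No paired analysis was possible because each condition has 1 array and the labels carry no replicate numbers; the interaction could not be tested with an array left out.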
